A study of Mus musculus with 26 samples.

Results

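Differentiation of C2C12 cells, a mouse myoblast line, was followed over its first 24 h in the presence of siSMYD3#2, a small interfering RNA (siRNA) against the lysine methyltransferase SMYD3. The 3 RNA-Seq libraries of siSMYD3#2 cells at 24 h were compared with the 3 of siSMYD3#2 cells at 0 h, which together make up 6 of the 26 libraries of the series. They were chosen by their treatment and time labels, and the extraction method of the RNA was kept in the model. The question was which parts of the 24 h response still occurred with this siRNA and which did not. The response of cells given siCtrl, an siRNA with no match in Smyd3 transcripts, was used as the reference (3 libraries at 0 h and 3 at 24 h), and that of a second siRNA, siSMYD3#1, was measured in another 6. All these cells came from the same parental line and were transfected on consecutive days, first as proliferating myoblasts and again when they were moved to low-serum differentiation medium, so that the libraries at 0 h already carried the siRNA. In the numbering of the study's list of sequenced libraries, replicates 1 and 2 of every siRNA condition were extracted with NucleoSpin columns and replicate 3 with TRIzol from cells of an earlier passage, so that extraction and passage cannot be told apart. The siRNA is transient, and each library averages over many cells, so that fewer differentiating cells and less RNA per cell cannot be told apart either. Levels are given in CPM, read counts of a gene scaled to the TMM-adjusted size of its library, changes as log2 fold changes with their standard errors (SE), and libraries are listed throughout in the order NucleoSpin replicate 1, NucleoSpin replicate 2, TRIzol replicate 3.

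Skeletal muscle differentiation is driven by basic helix-loop-helix (bHLH) factors of the MyoD family. MyoD and Myf5 mark committed myoblasts, and myogenin together with MEF2 factors switches on the genes of fusion, contraction and excitation once mitogens are withdrawn. In parallel the Id proteins, which sequester the partners of these factors, decline, the CDK inhibitor p21 accumulates, and the genes of replication and mitosis are shut off as cells leave the cycle for good. SMYD3 carries a SET domain and a MYND zinc finger, and methylates histone and other proteins.

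The strands of the siRNAs are shown because they define the treatment that all 6 libraries share. They are written 5′ to 3′ without the overhangs, the guide (antisense) strand with its seed, bases 2 to 8, in capitals.
siSMYD3#2 guide: uCAAAUCUucaaucaggcu
siSMYD3#2 sense: agccugauugaagauuuga
siSMYD3#1 guide: gUUGGGGUcacagcuguga
siCtrl guide: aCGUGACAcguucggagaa
The seeds of the 3 guides differ. The sense strand of siSMYD3#2 is found in 4 of the 7 annotated Smyd3 transcripts, and in Smyd3-204 it lies in the coding part of exon 12, at chr1:178957505-178957523 (GRCm38, minus strand). The siCtrl strand is found in 0 of them.

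Smyd3, the targeted gene (ENSMUSG00000055067, chromosome 1 from 178951960 to 179518041, minus strand), was examined first. Under siSMYD3#2 it stood at 7.56, 8.93 and 6.37 CPM at 0 h and at 5.46, 5.37 and 9.65 CPM at 24 h. The siCtrl libraries held 20.5, 19.5 and 21.6 CPM and 17.8, 19.9 and 20.7 CPM at these times, so that every siSMYD3#2 library lay below every siCtrl library. Between 0 h and 24 h Smyd3 did not pass the threshold under siSMYD3#2 (log2 fold change -0.17, SE 0.17, adjusted p = 0.475 by edgeR). The NucleoSpin pairs went down and the TRIzol pair went up. Over the NucleoSpin libraries alone (2 per group) the log2 fold change was -0.63 (adjusted p = 0.00318 by edgeR), past the threshold.

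The 6 siSMYD3#2 libraries held between 16482197 and 47473669 counts on genes, and the 6 siCtrl libraries between 15333299 and 60398170. Of 55341 genes per library, 15820 passed the low-count filter and were tested, among them 634 genes of the 720 symbols in the lists below. A gene near 0 at 0 h can pass this filter only through the libraries in which it is higher. In the siSMYD3#2 libraries at 24 h the summed level of 8 adipocyte markers was 73.6 to 77.6 CPM against 103 to 133 at 0 h, with Adipoq, Plin1 and Cidec at 3 counts or fewer at both times. The 7 osteoblast markers summed to 75.4 to 85.8 CPM against 71.8 to 97.2, with Bglap, Alpl, Ibsp and Dlx5 at the same floor, and the 7 haematopoietic and endothelial markers stayed at or under 5.01 CPM. The 7 smooth muscle and myofibroblast markers, several of which early muscle cells also use, summed to 1051 to 2711 CPM at 0 h and 1253 to 4069.8 CPM at 24 h. Their part in the results was not tested. The committed myoblast factors Myod1 and Myf5 were measured in every library.

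Muscle genes were switched on and cell cycle genes went down under siSMYD3#2 within 24 h. Myogenin, the fusogens and embryonic myosin rose, the Id inhibitors and cyclin D1 fell, and all 19 tested genes of replication licensing fell. Of the 66 tested contraction genes 29 rose, where 54 did in siCtrl, and of the 67 mitosis genes 32 fell, where 64 did in siCtrl. These shares are set against the changes of all genes, of which 9.11% rose and 9.88% fell under siSMYD3#2. By edgeR's quasi-likelihood test with a Benjamini-Hochberg adjusted p-value under 0.01, 3004 of 15820 genes (19%) changed between 0 h and 24 h, 1441 upward (9.11%) and 1563 downward (9.88%). In siCtrl 4655 genes (29.4%) changed, 2309 upward (14.6%) and 2346 downward (14.8%). Of the 4655 genes of the siCtrl response, 2516 (54%) also changed under siSMYD3#2, all of them in the same direction, 0 changed in the opposite direction, and 2139 did not pass the threshold. By sign alone, 4593 of the 4655 (98.7%) moved the same way. A further 488 genes changed under siSMYD3#2 without passing the threshold in siCtrl, and 475 of these had the same sign there. The number of genes changed under siSMYD3#2 was 583 without the extraction method in the model and 1264 in a fit of all 26 libraries. Leaving out single siSMYD3#2 libraries gave 1998 (without the second NucleoSpin library at 0 h) to 3110.

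The sizes of the changes were then compared. Genes chosen for a large siCtrl change will tend to look smaller elsewhere, and the comparison was therefore also made over the genes called under siSMYD3#1, a choice made on other libraries, although within the same fit. Among the 2012 genes raised under siSMYD3#1, the median log2 fold change was 0.76 in siCtrl and 0.61 under siSMYD3#2, and 1429 (71%) had a smaller log2 fold change under siSMYD3#2 than in siCtrl. Among the 2004 genes lowered under siSMYD3#1 the medians were -0.67 and -0.50, with 1541 (76.9%) nearer to 0 or higher under siSMYD3#2. Even among the genes called under siSMYD3#2 itself, 855 of 1441 raised genes and 1003 of 1563 lowered genes had a larger change in siCtrl.

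**Figure D1:**
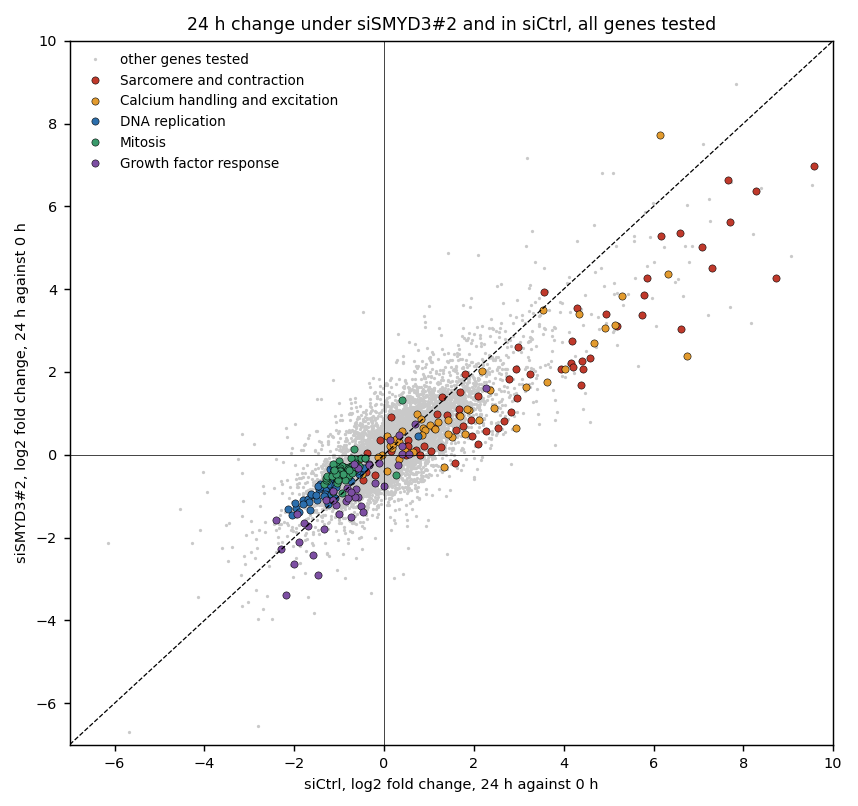
Log2 fold change at 24 h against 0 h for each of the 15820 genes tested, in siCtrl (x axis) and under siSMYD3#2 (y axis), with 5 gene groups coloured and the line of equal change dashed. Most contraction and calcium genes lie below the line, and 56 of 57 replication genes and 66 of 67 mitosis genes lie above it.

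For single genes the difference of the 2 responses was tested as an interaction. Only 3 genes passed the threshold (0.019% of 15820), all with a negative difference, that is a lower change under siSMYD3#2, and 1585 genes (10%) had an unadjusted p under 0.05, 787 with a positive and 798 with a negative difference. The count depended on the method and on the TRIzol libraries. DESeq2 called 112 genes (0.879% of 12739), and edgeR over the NucleoSpin libraries alone called 175 (1.15% of 15222), 130 negative and 45 positive, with 61 genes in common to both. In each of these fits every called difference had the same sign as in the fit over all libraries. These fits used the same libraries or a part of them, so the shared sign is not independent support. A gene below that passed the threshold in siCtrl and not under siSMYD3#2 is therefore not shown to differ unless its own difference is given as past the threshold. Differences past the threshold over the NucleoSpin libraries alone rest on 2 libraries per group. How the cultures of these libraries were separated is not stated, so their p-values may not cover the spread between independent cultures.

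Iffo1, Hist1h1c and Tgfb3 were these 3 genes. Iffo1 (ENSMUSG00000038271, chromosome 6 from 125145241 to 125161782, plus strand), which encodes an intermediate filament family protein, stood at 20.4, 20.6 and 23 CPM at 0 h and 57.7, 52.8 and 61.1 CPM at 24 h under siSMYD3#2. In siCtrl it went from 25.1, 23.8 and 24.5 to 129, 122 and 112 CPM, and the 24 h groups did not overlap. It rose under siSMYD3#2 (log2 fold change 1.42, SE 0.088, adjusted p = 7.18e-09 by edgeR), and the difference from siCtrl was -0.88 log2 units (SE 0.12, adjusted p = 0.00496 by edgeR). Hist1h1c (ENSMUSG00000036181, chromosome 13 from 23738808 to 23740367, plus strand), which encodes a linker histone of the H1 family, rose from 43.4, 41.9 and 64.3 to 71.8, 65.1 and 93.2 CPM (log2 fold change 0.63, SE 0.10, adjusted p = 1.38e-04 by edgeR). In siCtrl its levels were 40.4, 40.1 and 64.9 CPM at 0 h and 145, 144 and 166 CPM at 24 h, and the difference of the changes was -1.05 log2 units (SE 0.14, adjusted p = 0.00453 by edgeR). Both genes were higher at 24 h in every pair, TRIzol included. Tgfb3 (ENSMUSG00000021253, chromosome 12 from 86056745 to 86079041, minus strand), a ligand of the TGF-beta family, did not pass the threshold under siSMYD3#2, with 49.3, 53.8 and 58.4 CPM at 0 h and 50.1, 47.7 and 59.6 CPM at 24 h (log2 fold change -0.042, SE 0.079, adjusted p = 0.723 by edgeR), and the groups overlapped. In siCtrl it rose from 39.95, 47.3 and 50.2 to 74, 73.1 and 91.9 CPM (log2 fold change 0.79, SE 0.079, adjusted p = 4.05e-07 by edgeR), and the difference was -0.83 log2 units (SE 0.11, adjusted p = 0.00453 by edgeR). Leaving out single libraries moved the adjusted p of these 3 differences between 2.20e-04 and 0.0339, not under 0.01 without 10, 9 and 9 of the 12 libraries left out in turn, while the size of the difference stayed between -1.16 and -0.79. Some exon bases of Iffo1 and of Tgfb3 also belong to an opposite-strand gene.

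**Figure D2:**
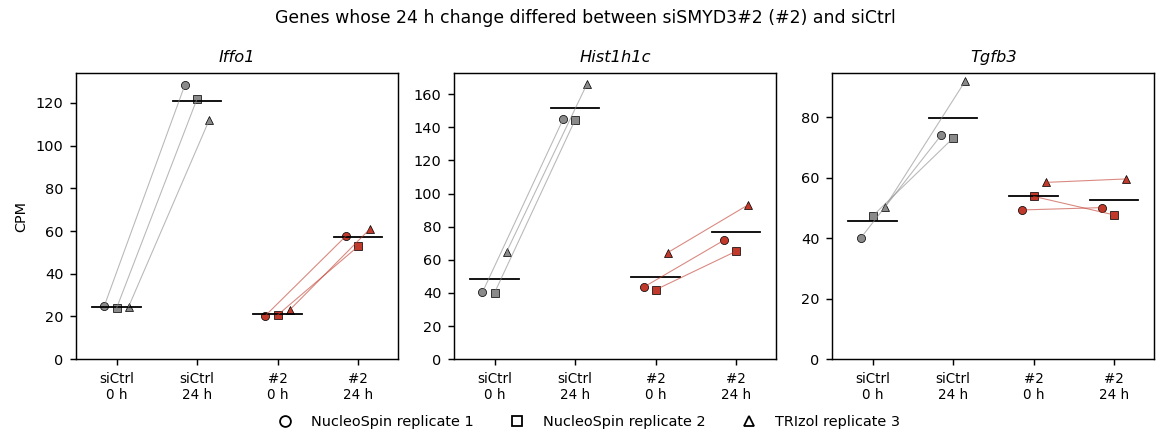
CPM of Iffo1, Hist1h1c and Tgfb3 in the 3 libraries of each group, with thin lines joining libraries of the same replicate number and bars at the group means. At 24 h all 3 genes are lower in every siSMYD3#2 library (red) than in every siCtrl library of that time (grey). Tgfb3 stays between 47.7 and 59.6 CPM under siSMYD3#2.

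The levels at each time were set side by side as well. At 0 h 84 of 15820 genes (0.531%) differed between siSMYD3#2 and siCtrl, 50 higher (0.316%) and 34 lower (0.215%) under siSMYD3#2, and at 24 h 586 (3.7%) differed, 263 higher (1.66%) and 323 lower (2.04%). Myog differed by -1.81 log2 units at 24 h (adjusted p = 0.00125 by edgeR) and the value at 0 h was -0.21 (adjusted p = 0.937 by edgeR). Ryr1 differed by -2.002 log2 units at 24 h (adjusted p = 1.56e-05 by edgeR) and the value at 0 h was -0.025 (adjusted p = 0.988 by edgeR). Only the values at 24 h passed the threshold for these 2 genes.

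Between the 2 siRNAs against SMYD3, 0 genes passed the threshold for a difference of the 24 h change by edgeR. There were 961 with an unadjusted p under 0.05, and 21 by DESeq2 and 70 over the NucleoSpin libraries alone passed the threshold of 0.01. Under siSMYD3#1 4016 genes changed (25.4%). In siSMYD3#1 the genes above had a log2 fold change of 1.09 for Iffo1, 1.38 for Hist1h1c and 0.15 for Tgfb3.

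The muscle transcription factors split by role. Of 37 tested regulators 8 rose and 8 fell under siSMYD3#2 (background 9.11% and 9.88%), against 14 and 7 in siCtrl (background 14.6% and 14.8%). Myog (ENSMUSG00000026459, chromosome 1 from 134289989 to 134292548, plus strand), which encodes myogenin, was still induced, from 1.35, 1.26 and 0.193 CPM to 48.6, 45.2 and 31.1 CPM (log2 fold change 5.65, SE 0.39, adjusted p = 4.49e-07 by edgeR). In siCtrl it went from 1.10, 1.87 and 0.184 to 222, 262 and 55.6 CPM, above every siSMYD3#2 library at 24 h. The difference of the changes was -1.60 log2 units (SE 0.56, adjusted p = 0.317 by edgeR) over all libraries, and -2.11 (adjusted p = 4.38e-04 by edgeR) over the NucleoSpin libraries alone, where it passed the threshold. Myod1, the founder of the family (ENSMUSG00000009471, chromosome 7 from 46376474 to 46379099, plus strand), fell under siSMYD3#2 from 29.1, 38.6 and 5.41 to 11.2, 8.54 and 5.02 CPM (log2 fold change -1.30, SE 0.30, adjusted p = 0.00455 by edgeR). The fall was in the NucleoSpin pairs, while the TRIzol pair differed little and its libraries at both times lay below all others, so that the time groups overlapped. In siCtrl the Myod1 level was 27.4, 31.4 and 6.41 CPM at 0 h and 20.2, 17.4 and 9.25 CPM at 24 h (log2 fold change -0.25, SE 0.29, adjusted p = 0.508 by edgeR), and the difference was -1.05 log2 units (SE 0.41, adjusted p = 0.383 by edgeR), or -1.15 (adjusted p = 0.00661 by edgeR) over the NucleoSpin libraries, where it passed.

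The region before the Myog start is shown because this early muscle-specific regulator still rose. It is the 250 bases before the start of the RefSeq gene on GRCm38.p6, chr1:134289754-134290003, plus strand, with letters matching CANNTG, the E-box that bHLH factors can bind and that reads the same pattern on both strands, in capitals.
Myog: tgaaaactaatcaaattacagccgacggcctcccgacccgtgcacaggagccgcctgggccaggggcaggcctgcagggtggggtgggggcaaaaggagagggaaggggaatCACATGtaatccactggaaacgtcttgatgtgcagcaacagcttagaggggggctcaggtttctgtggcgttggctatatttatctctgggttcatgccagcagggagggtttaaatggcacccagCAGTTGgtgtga
It holds CACATG from 138 to 133 bases and CAGTTG from 12 to 7 bases before the start. The letters are a description of the sequence and were not tested for binding.

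Of the other regulators, Mef2a, a MEF2 factor, rose under siSMYD3#2 from 91, 69.97 and 55.1 to 134, 144 and 169 CPM (log2 fold change 1.08, SE 0.18, adjusted p = 2.89e-04 by edgeR), with groups that did not overlap. Over all genes tested, all 3 libraries at 24 h lay above all 3 at 0 h in 12.3%, and below them in 14.4%. Mef2c, the MEF2 factor of early myotubes, stayed at or under 1.35 CPM in every siSMYD3#2 library and did not pass the threshold (log2 fold change -0.37, SE 0.43, adjusted p = 0.548 by edgeR), nor did it in siCtrl (log2 fold change 0.36, adjusted p = 0.501 by edgeR). Myf5 had 72.6, 70.4 and 64.5 CPM at 0 h and 104, 89.4 and 66.2 CPM at 24 h and did not pass (log2 fold change 0.31, SE 0.11, adjusted p = 0.0324 by edgeR). Among homeodomain and paired factors 3 of 8 rose, among them Six4, a homeodomain activator of muscle genes (log2 fold change 0.62, adjusted p = 6.08e-04 by edgeR). Zbtb18, a repressor needed for muscle development, rose (log2 fold change 1.13, adjusted p = 6.43e-06 by edgeR), and Hivep3, a zinc finger factor, fell (log2 fold change -1.11, adjusted p = 0.00544 by edgeR).

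The Id genes, inhibitors of the bHLH factors, fell under siSMYD3#2. Id2 fell from 29.7, 25.4 and 48.9 CPM at 0 h to 2.61, 2.25 and 6.59 CPM at 24 h (log2 fold change -3.27, SE 0.18, adjusted p = 1.43e-09 by edgeR). Id3 fell from 96.5, 114 and 159 to 4.85, 6.17 and 23.7 CPM (log2 fold change -3.73, SE 0.49, adjusted p = 1.61e-04 by edgeR). Id1 fell from 37, 43.9 and 99.3 to 13.7, 12.9 and 19.1 CPM (log2 fold change -1.87, SE 0.27, adjusted p = 1.38e-04 by edgeR). In each of the 3 genes all libraries at 24 h lay below all at 0 h, as they did in 14.4% of all genes. The log2 fold changes in siCtrl were -2.86, -2.69 and -1.58 in this order, and the differences were -0.41 log2 units (SE 0.24, adjusted p = 0.605 by edgeR), -1.04 log2 units (SE 0.63, adjusted p = 0.643 by edgeR) and -0.29 log2 units (SE 0.36, adjusted p = 0.854 by edgeR). Over all 10 tested inhibitors 4 fell and 1 rose (9.88% and 9.11% of all genes), against 5 and 4 in siCtrl (14.8% and 14.6% of all genes). The riser was Heyl, a Notch target (log2 fold change 1.61, adjusted p = 0.00465 by edgeR).

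Among 32 tested genes of myoblast fusion 4 rose and 1 fell, where 9.11% and 9.88% of all genes did, against 8 and 3 in siCtrl, where 14.6% and 14.8% of all genes did. The fusogens are the proteins that merge myoblast membranes. Mymk, which encodes myomaker (ENSMUSG00000009214, chromosome 2 from 27061636 to 27072179, minus strand), rose from 0.371, 0.506 and 0.724 to 14.6, 11.1 and 25.8 CPM (log2 fold change 5.04, SE 0.38, adjusted p = 4.51e-07 by edgeR), and Mymx, which encodes myomixer (ENSMUSG00000079471, chromosome 17 from 45600971 to 45602102, minus strand), from 0.480, 0.421 and 0.0966 to 9.04, 9.29 and 4.35 CPM (log2 fold change 4.55, SE 0.41, adjusted p = 8.76e-07 by edgeR). The siCtrl libraries reached 75.4, 94.1 and 61.5 CPM of Mymk and 27.1, 30.4 and 6.44 CPM of Mymx at 24 h. The differences of the changes, -1.82 log2 units (SE 0.59, adjusted p = 0.263 by edgeR) for Mymk and -1.30 log2 units (SE 0.61, adjusted p = 0.489 by edgeR) for Mymx, did not pass the threshold, and by DESeq2 that of Mymk did. Outside the fusogens, 2 of 13 adhesion receptors rose, among them Cdon (log2 fold change 0.73, adjusted p = 0.00293 by edgeR), a cell surface receptor of myoblasts, and 1 of 17 remodelling genes fell, the small GTPase Arf6 (log2 fold change -0.36, adjusted p = 0.00254 by edgeR).

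Of 66 tested genes of the sarcomere and contraction, 29 rose and 2 fell under siSMYD3#2 (9.11% and 9.88% of all genes), against 54 and 1 in siCtrl (14.6% and 14.8% of all genes). The median log2 fold change was 1.38 under siSMYD3#2 and 2.40 in siCtrl, where the medians of all genes were 0.013 and 0.027. With the 5 members that held 3 counts or fewer in every siSMYD3#2 library at 0 h set to their lower bound, the median was 1.24. The difference from siCtrl was negative for 60 of the 66, with an unadjusted p under 0.05 for 31 negative and 1 positive ones, against 5.04% and 4.97% of all genes. None of the 66 passed the threshold by edgeR over all libraries, 11 passed by DESeq2 (all negative, 0.424% of all genes), and 22 passed over the NucleoSpin libraries alone (all negative, 0.854% of all genes). By part of the sarcomere, 5 of 11 thick filament genes rose against 9 in siCtrl, with medians of 1.84 and 4.39. Of 19 thin filament genes 10 rose and 1 fell, against 17 and 1, with medians of 2.07 and 4.16. Of 23 genes of titin, the M-band and the Z-disc 7 rose and 1 fell, against 17 and 0, and of 13 assembly and turnover genes 7 rose, against 11.

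Among called genes with a mean of 100 counts or more and no overlap of the time groups, Myh3 showed the largest rise under siSMYD3#2. It encodes embryonic myosin heavy chain (ENSMUSG00000020908, chromosome 11 from 67078300 to 67102291, plus strand). It went from 0.283, 0.590 and 0.0966 to 31.7, 31.8 and 39.8 CPM (log2 fold change 6.98, SE 0.53, adjusted p = 1.44e-06 by edgeR), and the 24 h libraries lay close together. In siCtrl it reached 269, 311 and 83.2 CPM, and the difference was -2.59 log2 units (SE 1.03, adjusted p = 0.397 by edgeR), or -3.46 (adjusted p = 2.55e-04 by edgeR) over the NucleoSpin libraries. Mybph, a myosin binding protein gene (ENSMUSG00000042451, chromosome 1 from 134193448 to 134201232, plus strand), went from 0.174, 0.295 and 0.241 to 17.9, 16.6 and 15.1 CPM (log2 fold change 6.38, SE 0.39, adjusted p = 2.52e-08 by edgeR) and reached 93.1, 116 and 30.7 CPM in siCtrl. Actc1, the actin isoform of embryonic and cardiac muscle (ENSMUSG00000068614, chromosome 2 from 114047282 to 114053548, minus strand), went from 1.72, 1.81 and 0.145 to 55.7, 46.7 and 57.2 CPM (log2 fold change 5.62, SE 0.50, adjusted p = 6.61e-06 by edgeR) and reached 338, 444 and 103 CPM in siCtrl. In both genes the TRIzol library held the lowest siCtrl value at 24 h, while the 3 siSMYD3#2 libraries lay closer together. The difference of Actc1 was -2.08 log2 units (SE 0.72, adjusted p = 0.315 by edgeR), and it passed the threshold over the NucleoSpin libraries, at -2.89 (adjusted p = 2.50e-05 by edgeR). Tnnc1, troponin C of slow and cardiac muscle (ENSMUSG00000091898, chromosome 14 from 31208312 to 31211729, plus strand), went from 4.97, 6.28 and 4.68 to 20.2, 18.2 and 35.6 CPM (log2 fold change 2.22, SE 0.30, adjusted p = 8.78e-05 by edgeR) against 88.5, 121 and 55.9 CPM at 24 h in siCtrl. Its difference was -1.93 log2 units (SE 0.41, adjusted p = 0.0682 by edgeR), and it passed the threshold over the NucleoSpin libraries, at -2.57 (adjusted p = 4.05e-05 by edgeR). Myl4, the embryonic essential light chain (ENSMUSG00000061086, chromosome 11 from 104550663 to 104595753, plus strand), went from 0.937, 0.632 and 1.64 to 4.37, 3.87 and 6.98 CPM (log2 fold change 2.27, SE 0.46, adjusted p = 0.00162 by edgeR), against 25.7, 28.1 and 8.94 CPM at 24 h in siCtrl, with a difference of -2.13 log2 units (SE 0.64, adjusted p = 0.205 by edgeR) and of -2.73 (adjusted p = 2.36e-04 by edgeR) over the NucleoSpin libraries, past the threshold. Myom2, an M-band protein gene, rose with a log2 fold change of 3.55 (adjusted p = 4.08e-06 by edgeR). The 2 genes that fell, Tpm3 and Obsl1, also have roles outside muscle, and their log2 fold changes were -0.41 and -0.49 (adjusted p = 0.00979 and 0.00866 by edgeR).

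Smyd1, the muscle-specific relative of Smyd3 that helps to build the myosin filament (ENSMUSG00000055027, chromosome 6 from 71213940 to 71322233, minus strand), split by batch. Under siSMYD3#2 its NucleoSpin libraries held 13.4 and 12.9 CPM at 0 h and 16 and 12 CPM at 24 h, while the TRIzol pair went from 0.290 to 4.12 CPM. In siCtrl the levels were 15.6, 15.7 and 0.184 CPM at 0 h and 61.7, 79.5 and 10.4 CPM at 24 h, higher at 24 h in every pair. The change under siSMYD3#2 did not pass (log2 fold change 0.82, SE 0.64, adjusted p = 0.358 by edgeR), and its difference from siCtrl was -1.85 log2 units (SE 0.85, adjusted p = 0.499 by edgeR) over all libraries and -2.10 (adjusted p = 2.50e-05 by edgeR) over the NucleoSpin libraries, where it passed.

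Klhl41, a kelch protein gene needed for myofibril assembly (ENSMUSG00000075307, chromosome 2 from 69670120 to 69684230, plus strand), rose from 1.02, 1.01 and 1.26 to 8.25, 7.67 and 10.9 CPM (log2 fold change 3.12, SE 0.31, adjusted p = 2.41e-06 by edgeR). In siCtrl it went from 1.17, 1.22 and 0.847 to 45, 55.1 and 21.7 CPM. Its difference was -2.06 log2 units (SE 0.43, adjusted p = 0.0573 by edgeR), past the threshold by DESeq2 and, at -2.43 (adjusted p = 2.09e-04 by edgeR), over the NucleoSpin libraries. Its promoter is shown as an example of a muscle gene whose rise was kept at a lower level, in the same form (250 bases, RefSeq, GRCm38.p6, chr2:69669870-69670119, plus strand, CANNTG in capitals).
Klhl41: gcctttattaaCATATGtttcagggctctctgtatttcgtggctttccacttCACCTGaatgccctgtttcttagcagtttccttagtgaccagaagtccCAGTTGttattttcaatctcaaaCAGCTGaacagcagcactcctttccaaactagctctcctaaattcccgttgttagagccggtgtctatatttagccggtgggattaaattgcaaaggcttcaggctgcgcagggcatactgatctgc
It holds 4 matches, of which 1, from 127 to 122 bases before the start, reads CAGCTG, the form favoured by MyoD and myogenin and the same on both strands. Over the 53 of 66 tested contraction genes with a RefSeq window, 18 (34%) held CAGCTG in these 250 bases, against 14.7% of 27025 genes with a window and 3 of 47 (6.38%) replication genes.

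**Figure D3:**
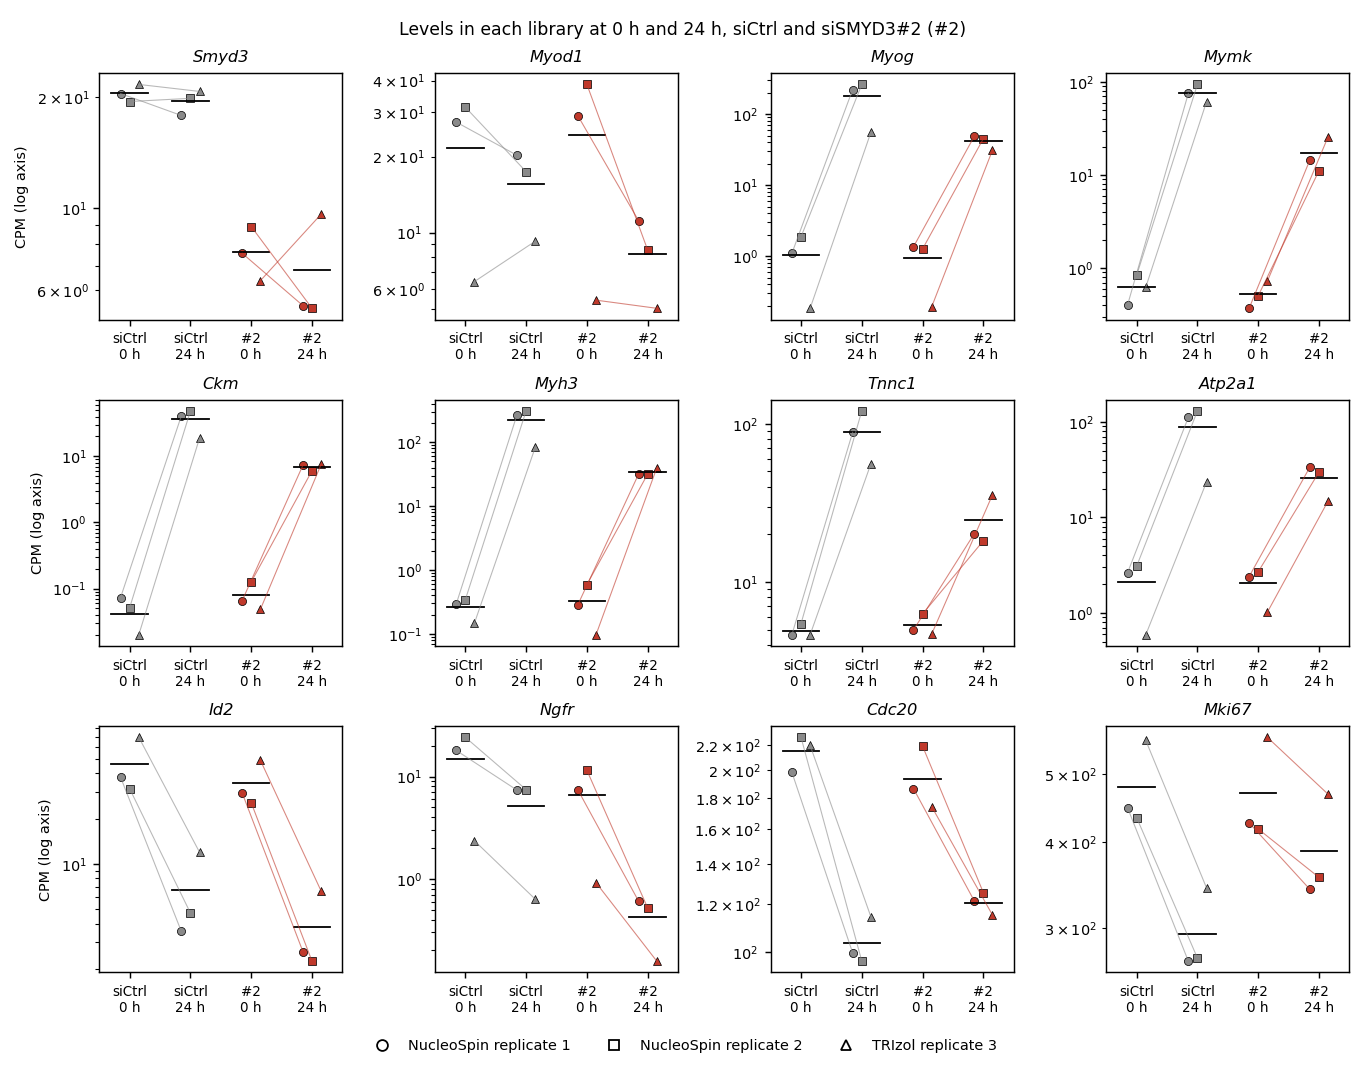
CPM of 12 genes in the 3 libraries of each group on log axes, with siCtrl in grey, siSMYD3#2 (#2) in red, thin lines joining libraries of the same replicate number and bars at the group means. The library with 0 counts of Ckm is drawn at 0.02 CPM. Myog, Mymk, Ckm, Myh3, Tnnc1 and Atp2a1 are higher at 24 h in every pair of both treatments, with lower means at 24 h under siSMYD3#2, and Cdc20 and Mki67 have higher means there.

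Calcium handling and excitation were then examined. Of 48 tested genes 19 rose and 1 fell (9.11% and 9.88% of all genes), against 31 and 1 in siCtrl (14.6% and 14.8% of all genes). The median log2 fold changes were 0.68 under siSMYD3#2 and 1.38 in siCtrl. The difference was negative for 36 of 48, 22 of them with an unadjusted p under 0.05, and 0 of the positive ones (5.04% and 4.97% of all genes). None passed by edgeR over all libraries, 8 by DESeq2 and 14 over the NucleoSpin libraries alone, all negative (0.424% and 0.854% of all genes). Ryr1, the calcium release channel (ENSMUSG00000030592, chromosome 7 from 29003344 to 29125179, minus strand), rose under siSMYD3#2 from 1.63, 1.52 and 1.35 to 8.19, 8.02 and 12.7 CPM (log2 fold change 2.70, SE 0.23, adjusted p = 3.34e-07 by edgeR), and in siCtrl it went to 42.6, 44.7 and 31.5 CPM. The difference was -1.98 log2 units (SE 0.32, adjusted p = 0.0174 by edgeR), and -2.50 (adjusted p = 3.18e-05 by edgeR) over the NucleoSpin libraries. Atp2a1, the calcium pump of fast muscle (ENSMUSG00000030730, chromosome 7 from 126445858 to 126463108, minus strand), rose from 2.40, 2.70 and 1.01 to 33.8, 29.9 and 14.9 CPM (log2 fold change 3.83, SE 0.24, adjusted p = 1.48e-08 by edgeR) and in siCtrl to 112, 131 and 23.6 CPM, with a difference of -1.47 log2 units (SE 0.33, adjusted p = 0.0682 by edgeR) and of -1.74 (adjusted p = 2.26e-04 by edgeR) over the NucleoSpin libraries. Chrng, the fetal subunit of the acetylcholine receptor (ENSMUSG00000026253, chromosome 1 from 87204657 to 87212694, plus strand), rose from 5.30, 6.07 and 2.32 to 51.9, 52 and 34.7 CPM (log2 fold change 3.41, SE 0.18, adjusted p = 1.43e-09 by edgeR), with a difference of -0.93 log2 units (SE 0.24, adjusted p = 0.103 by edgeR) and of -0.99 (adjusted p = 0.00613 by edgeR) over the NucleoSpin libraries. Sntb1, a syntrophin of the dystrophin complex, rose (log2 fold change 1.10, adjusted p = 0.00745 by edgeR), and the widely expressed pump Atp2a2 fell (log2 fold change -0.45, adjusted p = 3.07e-04 by edgeR), as it did in siCtrl (log2 fold change -0.48, adjusted p = 7.93e-05 by edgeR). Ryr1, Atp2a1 and Atp2a2 share exon bases with genes of the opposite strand.

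Of 33 tested genes of muscle energy supply 4 rose and 1 fell (9.11% and 9.88% of all genes), against 8 and 1 in siCtrl (14.6% and 14.8% of all genes), with medians of 0.046 under siSMYD3#2 and 0.28 in siCtrl. Ckm, the muscle creatine kinase (ENSMUSG00000030399, chromosome 7 from 19404776 to 19422841, plus strand), held 3 counts or fewer in every library at 0 h under both treatments, and reached 7.34, 6.06 and 7.57 CPM at 24 h under siSMYD3#2 and 41, 48.8 and 19 CPM in siCtrl. Against 3 counts in each library at 0 h, it was at least 62.3-fold higher at 24 h under siSMYD3#2 (adjusted p = 9.33e-09 by edgeR) and at least 400.3-fold higher in siCtrl. The difference of the changes did not pass the threshold (adjusted p = 0.260 by edgeR). The gene that fell was Pdk4, a kinase that restrains pyruvate oxidation (log2 fold change -0.999, adjusted p = 9.78e-04 by edgeR).

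Genes of the cell cycle fell under siSMYD3#2. Of 57 replication genes 46 fell and 0 rose (9.88% and 9.11% of all genes), against 54 and 0 in siCtrl (14.8% and 14.6% of all genes). The medians were -0.74 under siSMYD3#2 and -1.17 in siCtrl. The 19 licensing and helicase genes fell without exception, as in siCtrl, with medians of -0.77 and -1.43. Of 24 polymerase, clamp and ligation genes 16 fell against 23, and of 14 genes of nucleotide supply and E2F factors 11 against 12. Cdc6, which loads the MCM helicase (ENSMUSG00000017499, chromosome 11 from 98907801 to 98923940, plus strand), fell from 47.6, 46.9 and 59.2 to 16.4, 20.5 and 18.4 CPM (log2 fold change -1.46, SE 0.24, adjusted p = 3.68e-04 by edgeR) and in siCtrl from 48.3, 51.6 and 70.1 to 12.1, 14.5 and 14 CPM. Mybl2, a cell cycle transcription factor, fell from 80.00, 102 and 86.7 to 35.7, 39.3 and 28.3 CPM (log2 fold change -1.38, SE 0.18, adjusted p = 4.63e-05 by edgeR), and Chaf1b, of the chromatin assembly factor, from 65, 67.5 and 46.6 to 27.5, 28 and 22.8 CPM (log2 fold change -1.19, SE 0.24, adjusted p = 0.00150 by edgeR). The time groups of these 3 genes did not overlap, and 14.4% of all genes had every 24 h library below every 0 h library. Their differences from siCtrl, 0.59 log2 units (SE 0.34, adjusted p = 0.603 by edgeR), 0.53 log2 units (SE 0.26, adjusted p = 0.515 by edgeR) and 0.61 log2 units (SE 0.33, adjusted p = 0.584 by edgeR), did not pass. The difference was positive for 56 of the 57 genes, 25 with an unadjusted p under 0.05, against 4.97% of all genes. By edgeR 0 passed over all libraries. DESeq2 and the NucleoSpin libraries each called 3 of them, all positive (0.455% and 0.296% of all genes).

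Of 67 mitosis genes 32 fell and 0 rose under siSMYD3#2 (9.88% and 9.11% of all genes), against 64 and 0 in siCtrl (14.8% and 14.6% of all genes). The medians were -0.37 under siSMYD3#2 and -0.93 in siCtrl. The medians of the 3 siSMYD3#2 pairs were -0.47, -0.29 and -0.39, and those of the siCtrl pairs -0.99, -0.92 and -0.85, so that the pairs did not overlap. The difference was positive for 66 of the 67, with an unadjusted p under 0.05 for 57, against 4.97% of all genes. By edgeR 0 passed the threshold over all libraries, 20 passed by DESeq2 and 8 over the NucleoSpin libraries, all positive (0.455% and 0.296% of all genes). By role, 13 of 20 cyclins, kinases and their regulators fell against 18 in siCtrl, 11 of 25 kinetochore, checkpoint and chromosome genes against 25, and 8 of 22 spindle and cytokinesis genes against 21. Mki67, the chromosome surface protein used as a proliferation marker (ENSMUSG00000031004, chromosome 7 from 135689784 to 135716361, minus strand), had 426, 417 and 566 CPM at 0 h and 342, 355 and 468 CPM at 24 h and did not pass (log2 fold change -0.27, SE 0.08, adjusted p = 0.0141 by edgeR). It was lower at 24 h in every pair, and in siCtrl it fell from 448, 433 and 559.8 to 269, 272 and 343 CPM (log2 fold change -0.70, SE 0.08, adjusted p = 1.87e-06 by edgeR). The difference was 0.43 log2 units (SE 0.11, adjusted p = 0.117 by edgeR).

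Cdc20, the activator of the anaphase-promoting complex (ENSMUSG00000006398, chromosome 4 from 118432901 to 118437352, minus strand), fell from 187, 219 and 174 to 122, 125 and 115 CPM (log2 fold change -0.68, SE 0.11, adjusted p = 2.06e-04 by edgeR) and in siCtrl from 198, 227 and 219.8 to 99.7, 96.6 and 114 CPM, with a difference of 0.37 log2 units (SE 0.16, adjusted p = 0.411 by edgeR). Cdca5, which protects cohesion, fell with a log2 fold change of -0.91 (adjusted p = 7.76e-04 by edgeR), and Tacc3, a spindle protein, with -0.48 (adjusted p = 0.00442 by edgeR). The promoter of Cdc20 is shown because many mitotic promoters carry a cell cycle homology region, TTTGAA, near the start. It is the 250 bases before the RefSeq start on GRCm38.p6, chr4:118437344-118437593, minus strand, with TTTGAA in capitals.
Cdc20: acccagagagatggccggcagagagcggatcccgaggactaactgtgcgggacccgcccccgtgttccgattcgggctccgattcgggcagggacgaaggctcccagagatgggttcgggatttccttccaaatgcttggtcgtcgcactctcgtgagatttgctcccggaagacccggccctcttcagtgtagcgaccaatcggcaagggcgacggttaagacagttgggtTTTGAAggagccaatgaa
The match lies from 18 to 13 bases before the start. Searched on both strands as TTTGAA and TTCAAA, which do not overlap CAGCTG, it was found before 20 of 55 mitosis genes with a window (36.4%), 10 of 47 replication genes (21.3%), and 18.3% of 27025 genes. Over the tested genes, 66.5% of which had a window, the share was 12.9% (1353 of 10519).

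Regulators of cell cycle exit were among the genes that changed. Cdkn1a, which encodes p21 (ENSMUSG00000023067, chromosome 17 from 29090976 to 29100727, plus strand), rose from 158, 169 and 268 to 331, 330.2 and 438 CPM (log2 fold change 0.90, SE 0.14, adjusted p = 1.41e-04 by edgeR), with groups that did not overlap, and in siCtrl from 216, 234 and 322 to 622, 669 and 596 CPM. Every 24 h library lay above every 0 h library under siSMYD3#2 in 12.3% of all genes. The difference of Cdkn1a from siCtrl was -0.42 log2 units (SE 0.20, adjusted p = 0.495 by edgeR). Ccnd1, cyclin D1 (ENSMUSG00000070348, chromosome 7 from 144929931 to 144939925, minus strand), fell from 231, 227 and 241 to 102, 129 and 89.6 CPM (log2 fold change -1.14, SE 0.20, adjusted p = 7.48e-04 by edgeR), and in siCtrl from 352, 344 and 428 to 226, 235 and 114 CPM. The difference was -0.14 log2 units (SE 0.28, adjusted p = 0.931 by edgeR). Ccng2, a cyclin of arrested cells, rose from 42.7, 32.9 and 20.7 to 98.3, 100.3 and 66.9 CPM (log2 fold change 1.49, SE 0.13, adjusted p = 2.62e-07 by edgeR), against a log2 fold change of 1.78 in siCtrl. Of 18 genes in the group 4 rose and 2 fell (9.11% and 9.88% of all genes), against 7 and 5 in siCtrl (14.6% and 14.8% of all genes).

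Growth factor response genes respond to the mitogens that the medium change withdraws. Of 41 tested 19 fell and 1 rose under siSMYD3#2 (9.88% and 9.11% of all genes), against 17 and 2 in siCtrl (14.8% and 14.6% of all genes), with medians of -1.02 under siSMYD3#2 and -0.73 in siCtrl. Among 18 immediate early factors 6 fell against 2, with medians of -1.14 and -0.62, and among 23 ERK feedback and target genes 13 fell against 15. The pair medians of the whole group were -1.09, -1.05 and -0.54 under siSMYD3#2 and -0.53, -0.68 and -0.77 in siCtrl. The fall was thus larger under siSMYD3#2 in the NucleoSpin pairs only, and smaller in the TRIzol pair. Across the 3 siSMYD3#2 pairs the median of the immediate early factors was -1.32, -1.42 and -0.28, smaller in the TRIzol pair. In the siCtrl pairs it was -0.50, -0.71 and -0.20. Nr4a1, an orphan nuclear receptor of the immediate early class (ENSMUSG00000023034, chromosome 15 from 101254269 to 101274795, plus strand), fell from 63.4, 69.6 and 7.15 to 3.88, 3.58 and 6.08 CPM (log2 fold change -2.90, SE 0.66, adjusted p = 0.00531 by edgeR). In siCtrl it had 21.3, 35.6 and 9.24 CPM at 0 h and 8.28, 8.42 and 5.17 CPM at 24 h and did not pass (log2 fold change -1.48, adjusted p = 0.0698 by edgeR). Under siSMYD3#2 the fall was large in the NucleoSpin pairs and small in the TRIzol pair, and the time groups did not overlap. The lack of overlap was a condition of the place of Nr4a1 among the largest falls. The difference was -1.42 log2 units (SE 0.88, adjusted p = 0.648 by edgeR), or -2.38 (adjusted p = 2.31e-04 by edgeR) over the NucleoSpin libraries, past the threshold. Dusp5, a phosphatase that feeds back on ERK (ENSMUSG00000034765, chromosome 19 from 53529109 to 53542431, plus strand), fell from 45.4, 58.7 and 32.9 to 7.64, 8.54 and 11.4 CPM (log2 fold change -2.27, SE 0.22, adjusted p = 2.79e-06 by edgeR), and by a log2 fold change of -2.30 in siCtrl. Klf4 rose under both treatments (log2 fold change 0.75 and 0.70, adjusted p = 0.00163 and 0.00162 by edgeR).

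Falls were ranked among called genes with a mean of 100 counts or more and no overlap of the time groups. Ngfr, Id3, Id2, Nr4a1 and Arc had the largest falls under siSMYD3#2. Ngfr, the p75 neurotrophin receptor (ENSMUSG00000000120, chromosome 11 from 95568818 to 95587735, minus strand), fell from 7.43, 11.5 and 0.917 to 0.606, 0.519 and 0.157 CPM (log2 fold change -3.82, SE 0.35, adjusted p = 7.20e-07 by edgeR), and in siCtrl from 18, 24.2 and 2.36 to 7.36, 7.44 and 0.633 CPM (log2 fold change -1.56, SE 0.23, adjusted p = 3.31e-05 by edgeR). The difference was -2.26 log2 units (SE 0.44, adjusted p = 0.0478 by edgeR) over all libraries and -2.53 (adjusted p = 0.00458 by edgeR) over the NucleoSpin libraries, and DESeq2 called it too. Arc, an activity-regulated gene (ENSMUSG00000022602, chromosome 15 from 74669083 to 74672570, minus strand), fell from 19.7, 26.5 and 24.7 to 2.49, 2.25 and 7.96 CPM (log2 fold change -2.66, SE 0.46, adjusted p = 8.14e-04 by edgeR), with a log2 fold change of -2.08 in siCtrl. Among the largest rises Cpa1, a carboxypeptidase gene (ENSMUSG00000054446, chromosome 6 from 30639218 to 30645363, plus strand), was the gene closest to siCtrl. It rose from 0.174, 0.421 and 0 to 15.7, 17.4 and 3.45 CPM (log2 fold change 6.08, SE 0.31, adjusted p = 1.43e-09 by edgeR), and in siCtrl from 0.915, 0.703 and 0.0368 to 46.1, 52.6 and 7.63 CPM (log2 fold change 5.99), from a higher level in every pair. The difference of the changes was 0.093 log2 units (SE 0.38, adjusted p = 0.974 by edgeR).

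Secreted factors and matrix genes were set against the same background, 9.11% of all genes raised and 9.88% lowered under siSMYD3#2 and 14.6% and 14.8% in siCtrl. Of 12 genes of the IGF axis 6 rose against 7, with medians of 0.50 and 0.41. Igfbp5, a secreted binding protein of the IGFs (ENSMUSG00000026185, chromosome 1 from 72857932 to 72874884, minus strand), rose from 689, 656 and 119.8 to 4515, 3988 and 1450.2 CPM (log2 fold change 3.03, SE 0.39, adjusted p = 1.22e-04 by edgeR), and reached 4608, 4425 and 1805 CPM in siCtrl. Of 16 TGF-beta family ligands and antagonists 2 rose and 3 fell, against 4 and 3. Tgfb2 rose (log2 fold change 1.06, adjusted p = 9.45e-04 by edgeR), and Grem1, a BMP antagonist, fell (log2 fold change -1.42, adjusted p = 2.36e-05 by edgeR). Of 68 matrix genes 21 rose and 6 fell, against 23 and 5, with medians of 0.29 under siSMYD3#2 and 0.37 in siCtrl. Dcn, the proteoglycan decorin (ENSMUSG00000019929, chromosome 10 from 97479609 to 97518143, plus strand), rose from 1.16, 0.800 and 0.531 to 24.2, 22.3 and 9.65 CPM (log2 fold change 4.52, SE 0.26, adjusted p = 3.59e-09 by edgeR), with a log2 fold change of 4.83 in siCtrl, where its levels were higher at both times. Adamts5, a matrix protease, rose from 3.71, 4.55 and 2.27 to 25.8, 26 and 31.6 CPM (log2 fold change 3.07, SE 0.37, adjusted p = 4.14e-05 by edgeR), against 2.57 in siCtrl. Col4a5, a basement membrane collagen, rose (log2 fold change 0.99, adjusted p = 2.68e-04 by edgeR). Timp3, a protease inhibitor, and Ccn5, a matricellular protein, fell (log2 fold change -1.25 and -1.08, adjusted p = 0.00176 and 0.00116 by edgeR).

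Of 37 tested interferon response genes 17 rose and 0 fell (9.11% and 9.88% of all genes), against 10 and 0 in siCtrl (14.6% and 14.8% of all genes), with medians of 0.77 under siSMYD3#2 and 0.61 in siCtrl. The difference was positive for 29 of the 37, of which 4 had an unadjusted p under 0.05, and 0 passed the threshold by edgeR, by DESeq2 or over the NucleoSpin libraries. Ddx58, which encodes the RNA sensor RIG-I (ENSMUSG00000040296, chromosome 4 from 40203773 to 40239828, minus strand), rose from 9.35, 8.89 and 19.6 to 18.3, 17.6 and 33.8 CPM (log2 fold change 0.91, SE 0.12, adjusted p = 2.74e-05 by edgeR), with a log2 fold change of 0.67 in siCtrl, and Tap2, a peptide transporter of antigen presentation, rose by a log2 fold change of 0.77 (adjusted p = 0.00510 by edgeR). Of 40 sterol and fatty acid genes 4 rose and 0 fell, against 5 and 0, among them Tm7sf2, Insig2 and Acss2 (log2 fold change 1.04, 0.66 and 0.75, adjusted p = 2.51e-04, 0.00383 and 4.03e-04 by edgeR). Of 42 p53 and stress genes 5 rose and 6 fell, against 8 and 7 in siCtrl. The sterol, p53, SMYD and other cell type counts stand against the same shares of all genes (9.11% raised and 9.88% lowered under siSMYD3#2). Trp53inp1, a p53 target, rose (log2 fold change 1.38, adjusted p = 4.66e-04 by edgeR), and Mcl1, a survival factor, and Creld2, an ER stress gene, fell (log2 fold change -0.34 and -0.59, adjusted p = 0.00584 and 7.72e-04 by edgeR). Of 5 tested SMYD genes 2 fell, against 2 that fell and 1 that rose in siCtrl, with Smyd5 at a log2 fold change of -0.59 (adjusted p = 2.63e-04 by edgeR). Of the 16 tested markers of other cell types 1 rose and 2 fell, among them Lmod1 of smooth muscle (log2 fold change 1.27, adjusted p = 0.00384 by edgeR) and Plin4 of adipocytes (log2 fold change -0.65, adjusted p = 0.00908 by edgeR).

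**Figure D4:**
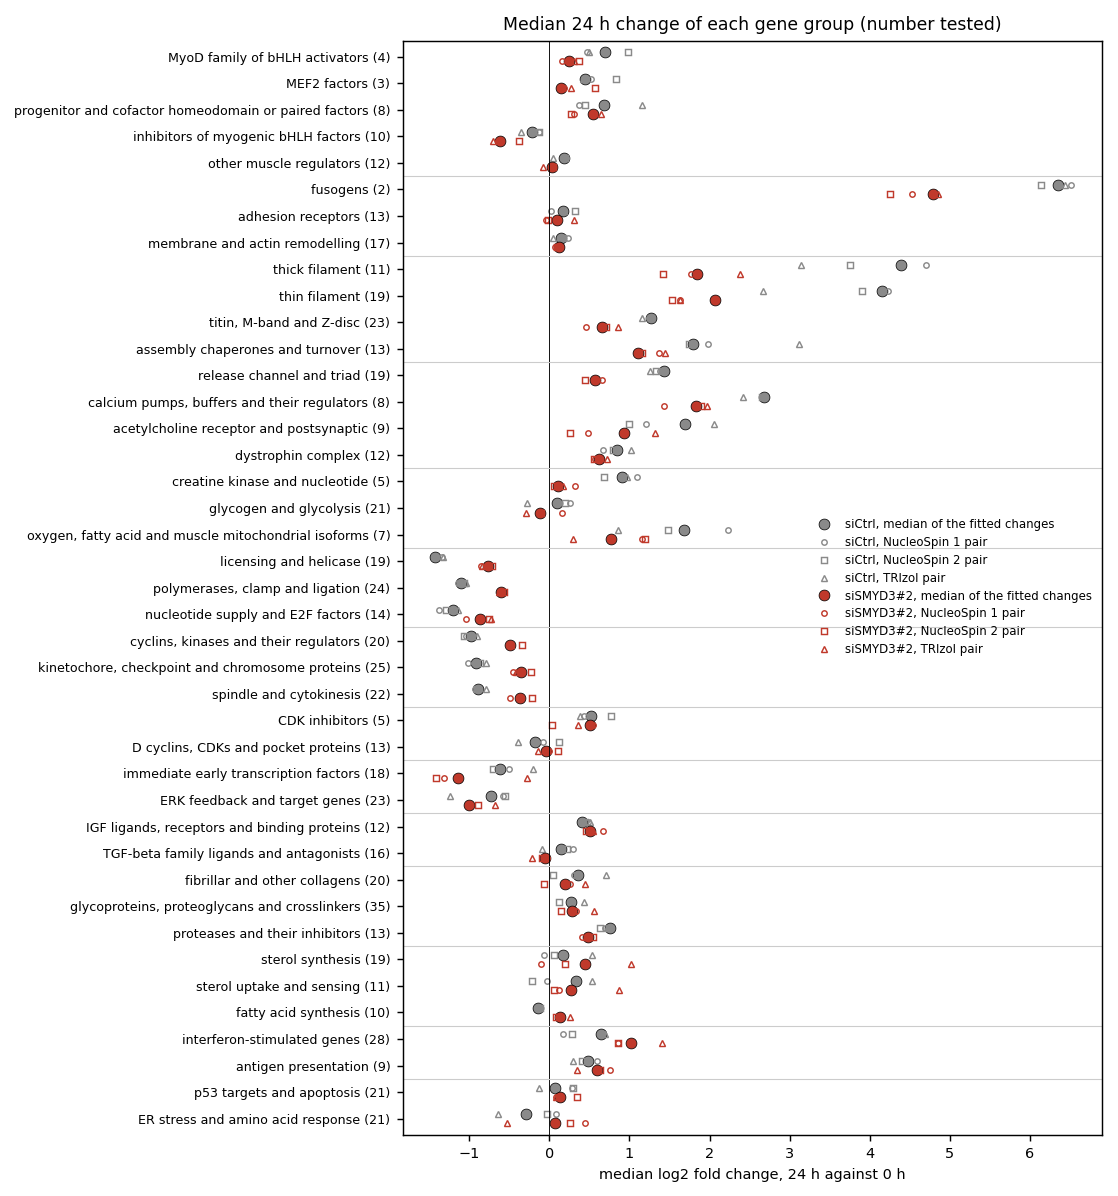
Median log2 fold change at 24 h against 0 h of each gene group, with the number of genes tested, in siCtrl (grey) and under siSMYD3#2 (red). Filled circles are medians of the fitted changes, and small open symbols are medians within each pair of libraries of the same replicate number. The siSMYD3#2 medians are nearer to 0 for the filament, calcium, replication and mitosis groups, and farther from 0 for several other groups. Among these are the immediate early factors, the ERK feedback genes, the bHLH inhibitors, sterol synthesis and the interferon-stimulated genes. For the immediate early factors the TRIzol pairs lie close, at -0.28 under siSMYD3#2 and -0.20 in siCtrl. For the ERK feedback genes the TRIzol pairs go the other way, at -0.68 under siSMYD3#2 and -1.24 in siCtrl.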

How the data were processed

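RNA-Seq was done on C2C12 cells, and 18 siRNA libraries (6 groups of 3) were used here. The authors deposited raw counts per gene and library. The submitters' processing notes name FastQC 0.11.5, HISAT2 2.1.0, featureCounts of Subread 1.6.3 and the mouse build GRCm38. The strand setting, the treatment of multimapping reads and the annotation release are not given in the sources used here. Of the 72 named genes 23 overlap exons of another gene, 2 of them in the same orientation and 21 in the opposite one, and their counts are uncertain to that extent.

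The deposited counts went into edgeR 4.0.16 under R 4.3.3. The model held 6 groups and the extraction method, with filterByExpr, TMM scaling and the robust quasi-likelihood test, and 24 h was compared with 0 h within each siRNA and between siRNAs by the difference of the changes. P-values were adjusted over 15820 genes by Benjamini-Hochberg and called under 0.01, the threshold of the study, which used DESeq2 with condition and extraction. Each SE is the absolute log2 fold change over the root of its quasi-likelihood F statistic. Alternatives were DESeq2 1.42.0, RLE scaling, other filters, thresholds and sample sets, no extraction term, a replicate block, and leaving out each library. The study calls its replicates biological. Replicate 3 came from another passage, and the sources used here do not say how the cultures of replicates 1 and 2 were separated. No libraries were identical (0 of 153 pairs). Counts give relative levels only, and depth limits low genes.

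The model was tested on simulated counts with known changes before use.

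The replicate numbers come from the study's list of sequenced libraries, matched by library name, and a figure legend of the study numbers the replicates differently. Deviations of same-numbered siSMYD3#2 libraries from their group means correlated at 0.46, 0.48 and 0.71, and those of siCtrl at 0.41, 0.56 and 0.70. This cannot be told apart from the extraction and passage that replicate 3 shares in all groups. Within the NucleoSpin libraries alone the correlations were -0.041 and 0.028, so pairing of replicates 1 and 2 was not shown. A pair in the text means only libraries of the same replicate number.

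The comparison and the 16 gene lists were chosen with earlier results of these data known. Of 722 list entries 720 matched a gene and 2 did not, and 634 distinct listed genes were tested. Named genes are fixed anchor genes, the 5 largest rises and falls, the genes whose difference from siCtrl passed, and, in each role of each list, the called gene with the largest rise and fall. The 5 largest rises and falls were taken from called genes with no overlap of the time groups. Other than the anchors, named genes had a mean count of at least 100, so that low genes with larger changes are not named. Promoters are the 250 bases before RefSeq gene starts, and motif shares of lists are given only where at least 80% of their genes had windows.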

Additional observations from a re-analysis of the deposited data

Results flagged for a closer look

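The 24 h changes of 3 genes differed between siSMYD3#2 and siCtrl by the test of the difference itself. The differences were -1.05 on the log2 scale for Hist1h1c (adjusted p = 0.00453 by edgeR), -0.88 for Iffo1 (adjusted p = 0.00496 by edgeR) and -0.83 for Tgfb3 (adjusted p = 0.00453 by edgeR). With libraries matched by replicate number only, each change was lower under siSMYD3#2 than in siCtrl in 3 of 3 pairs. The genes were chosen by this difference in the same libraries, so the pairs are not independent support. Groups of 3 libraries are too small for the test of single outlying samples.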

How the results depend on the processing

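Counts of changed genes depended on the handling of the 2 extraction methods. The number of genes changed under siSMYD3#2, 3004 as reported, was 583 without the extraction term, 1264 in a fit of all 26 libraries, 5069 at an adjusted p under 0.05 and 853 with at least a doubling or halving, of which 73.7% rose against 48.0% as reported. Leaving out single libraries gave 1998 to 3110, the lowest without the second NucleoSpin library at 0 h. The number shared with siCtrl, 2516, was in the same settings 527, 1096, 4140 and 663, and ranged from 1774 to 2467 without single libraries. The number of genes that differed from siCtrl, 3, was 112 by DESeq2, 230 with no low-count filter, 0 without the extraction term, 175 over the NucleoSpin libraries, 0 in the fit of all 26 libraries, 24 at an adjusted p under 0.05 and 1 with at least a doubling or halving. Without single libraries it ranged from 0 to 40, at 40 without the siCtrl TRIzol library at 24 h, 33 without the siSMYD3#2 TRIzol library at 24 h, 4 without the second siCtrl NucleoSpin library at 0 h and 0 for each of the other 9. The number that differed from siSMYD3#1, 0, was 21 by DESeq2, 123 with no filter, 70 over the NucleoSpin libraries and 6 at an adjusted p under 0.05, and ranged from 0 to 9, at 9 without the siSMYD3#1 TRIzol library at 24 h and 3 without the siSMYD3#2 TRIzol library at 24 h. The cause was not tested. With the replicate block, which follows the pairing by replicate number, the counts were 2812, 2361, 3 and 0, and none moved by more than 1.5 times.

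Of the 24 h changes of the 72 named genes under siSMYD3#2, 0 of 1080 refits reversed the direction, 923 kept direction and call, 152 lost the call and 5 gained it. Of 840 refits of the differences from siCtrl for 42 genes, 732 kept both, 34 lost the call, 48 gained it and 26 reversed, all in genes whose difference was not called. Those were Myf5 (0.016 with no filter, 0.013 without the extraction term, 0.14 over the NucleoSpin libraries), Cpa1 (-0.071 without the extraction term, -0.025 over the NucleoSpin libraries), Tpm3 (0.0077 with no filter) and Atp2a2 (-0.0074 over the NucleoSpin libraries). Without single libraries the differences ranged from -0.42 to 0.053 for Smyd3, from -0.13 to 0.10 for Myf5, from -0.41 to 0.012 for Ccnd1, from -0.42 to 0.70 for Cpa1, from -0.16 to 0.10 for Tpm3 and from -0.023 to 0.092 for Atp2a2.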
